A study of Mus musculus with 13 samples.

Results

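A set of 9 genes that build the scaffold of the sarcomere, Ttn, Actn2, Myom1, Myom2, Myoz2, Csrp3, Lmod2, Smpx and Des, were followed across 13 mouse microarrays. They were chosen by name, by taking every probe to which the platform annotation gives any of these symbols. All 9 of 9 genes had a probe, out of 16390 genes measured. The 9 genes had 11 probes in all, 3 for Ttn and 1 for each other gene. The group holds Z-disc, titin and M-band genes, and also a thin filament gene (Lmod2) and the intermediate filament gene of muscle (Des).

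The sarcomere is the contractile unit of muscle, bounded by Z-discs, where actin filaments are anchored and crosslinked, and centred on the M-band, where myosin filaments are tied to one another. Titin spans from the Z-disc to the M-band as a molecular spring and ruler. The Z-disc also carries signalling and stretch-sensing proteins, and desmin filaments link neighbouring Z-discs to each other and to the cell membrane.

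The study asked how reprogramming of fibroblasts into induced cardiomyocyte-like cells (iCMs) differs with the culture medium and with the set of transduced transcription factors. Each group was 1 single-colour array of total RNA, without replicate cultures or animals, and this small number of arrays sets the precision of all that follows. GMT iCMs, made with Gata4, Mef2c and Tbx5 and sorted for GFP driven by the cardiac αMHC promoter, were grown in FBS (serum), SF (serum-free) or FFV (FGF2, FGF10 and VEGF) and taken at 2 weeks or 4 weeks (6 arrays). GMTMM iCMs, made from tail-tip fibroblasts (TTFs) with GMT plus Mesp1 and Myocd, were grown in FFV or FBS (2 arrays). MT iCMs, made with Mef2c and Tbx5, were grown in FFV (1 array). For GMTMM and MT iCMs the labels name no sampling time or sort, and for MT iCMs no cell of origin. Mouse embryonic fibroblasts (MEFs), TTFs, a heart of embryonic day 12 (E12) and a heart of postnatal day 1 (P1) gave 1 array each. Hearts were whole tissue and the GMT iCMs were sorted cells. In such bulk samples fewer cells of a type and less RNA per cell cannot be told apart.

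Between 78.4% and 91.5% of the probes on an array lay well above the blank spots, that is, above the blank mean plus 2 SD. By their array identifiers the arrays fell into 3 series, 1 with the E12 heart beside all GMT iCMs, another with the P1 heart beside the MEFs, and a last with MT iCMs, GMTMM iCMs and TTFs. Series and sample type cannot be told apart for comparisons across them. All 9 measured cardiomyocyte markers were above background in both hearts, and all 10 fibroblast markers in MEFs and TTFs. The summed level of the cardiomyocyte markers, on the linear normalised scale, was 79939 to 119463 on the 6 GMT arrays. It was 129189 in the E12 heart, 164198 in the P1 heart, 13550 in MT iCMs and 618 in MEFs. In GMTMM iCMs it was 2497 in FFV and 1023 in FBS, against 560 in TTFs. Such a sum is carried by its brightest genes. Of the 9 markers 7 were at least 2-fold higher than in MEFs on every GMT array (1.96% of all genes). Myl2 and Pln, named after their values were seen, read 5.76 to 5.81 and 6.02 to 6.16 in log2 on the GMT arrays. Myl2 read 14.71 in the E12 heart and 15.30 in the P1 heart, and Pln 11.44 and 13.26. The summed fibroblast markers reached 4632 to 14884 on the GMT arrays, 81198 in MEFs, 43194 in MT iCMs, and 49635 and 43709 in GMTMM iCMs in FFV and FBS.

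Promoter sequences show which short words lie next to these genes' start sites, among them sites of transduced factors such as Mef2c. The sequences are RefSeq's on mouse build GRCm38.p6, 250 bases before to 50 after each start, and 8 of 9 genes matched, with 9 promoters because Csrp3 has 2 starts. Both strands were searched for a MEF2 box, the site bound by the MEF2 family, and a CArG box, the site bound by serum response factor. Serum response factor was not among the transduced factors. A MEF2 box was found in Ttn and Myoz2, and in 3.19% of all 32851 promoters of the same length. A CArG box was found in Myom1 alone of the 8 genes, and in 1.63% of all promoters. Des, which has neither in this window, is shown for comparison. Capitals mark the MEF2 box in Ttn and Myoz2 and the CArG box in Myom1, and each sequence runs 5′ to 3′ along the gene's strand: Ttn at chr2:76982498-76982797 (minus strand), Myoz2 at chr3:123034938-123035237 (minus strand), Myom1 at chr17:71019307-71019606 (plus strand) and Des at chr1:75360042-75360341 (plus strand).
Ttn: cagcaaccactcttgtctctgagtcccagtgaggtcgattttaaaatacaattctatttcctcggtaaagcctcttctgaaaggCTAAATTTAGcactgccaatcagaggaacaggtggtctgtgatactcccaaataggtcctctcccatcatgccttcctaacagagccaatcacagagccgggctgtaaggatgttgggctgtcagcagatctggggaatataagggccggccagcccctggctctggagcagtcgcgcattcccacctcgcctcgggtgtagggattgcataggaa
Myoz2: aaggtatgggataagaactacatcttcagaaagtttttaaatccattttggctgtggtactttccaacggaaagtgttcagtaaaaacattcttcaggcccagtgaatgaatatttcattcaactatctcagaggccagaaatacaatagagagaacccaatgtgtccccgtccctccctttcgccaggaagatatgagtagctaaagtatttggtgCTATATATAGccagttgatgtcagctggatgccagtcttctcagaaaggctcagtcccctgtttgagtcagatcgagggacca
Myom1: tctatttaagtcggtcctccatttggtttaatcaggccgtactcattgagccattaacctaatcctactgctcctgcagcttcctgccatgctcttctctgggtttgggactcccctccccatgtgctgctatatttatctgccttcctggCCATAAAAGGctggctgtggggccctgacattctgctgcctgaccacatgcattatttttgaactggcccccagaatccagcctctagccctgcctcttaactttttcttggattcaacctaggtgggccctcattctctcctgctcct
Des: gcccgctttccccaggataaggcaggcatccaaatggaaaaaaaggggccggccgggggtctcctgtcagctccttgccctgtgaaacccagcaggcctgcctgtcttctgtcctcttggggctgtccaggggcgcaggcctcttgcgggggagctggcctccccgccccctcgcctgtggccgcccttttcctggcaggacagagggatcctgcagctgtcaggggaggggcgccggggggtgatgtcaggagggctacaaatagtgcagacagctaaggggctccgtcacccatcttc
The first base of the box lay 166 bases before the start in Ttn, 33 before it in Myoz2 and 99 before it in Myom1. The Myom1 start used here lies inside the annotated gene, which begins at chr17:71003332, so that its CArG box is at an internal start. The GATA word AGATAA was present in Myom1 and Smpx (11.2% of all promoters), and the T-box word AGGTGT in the second Csrp3 promoter (13.7%). The E-box CANNTG was present in 7 of 8 genes and in 72.3% of all promoters. Such matches describe letters, not binding.

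All levels below are log2 normalised intensities of 1 probe. They can be compared between arrays but not between genes, since each probe has its own brightness. A level near 5.7 is that of the blank spots: the dimmest probe well above background stood at 5.73 to 5.82, depending on the array.

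**Figure D1:**
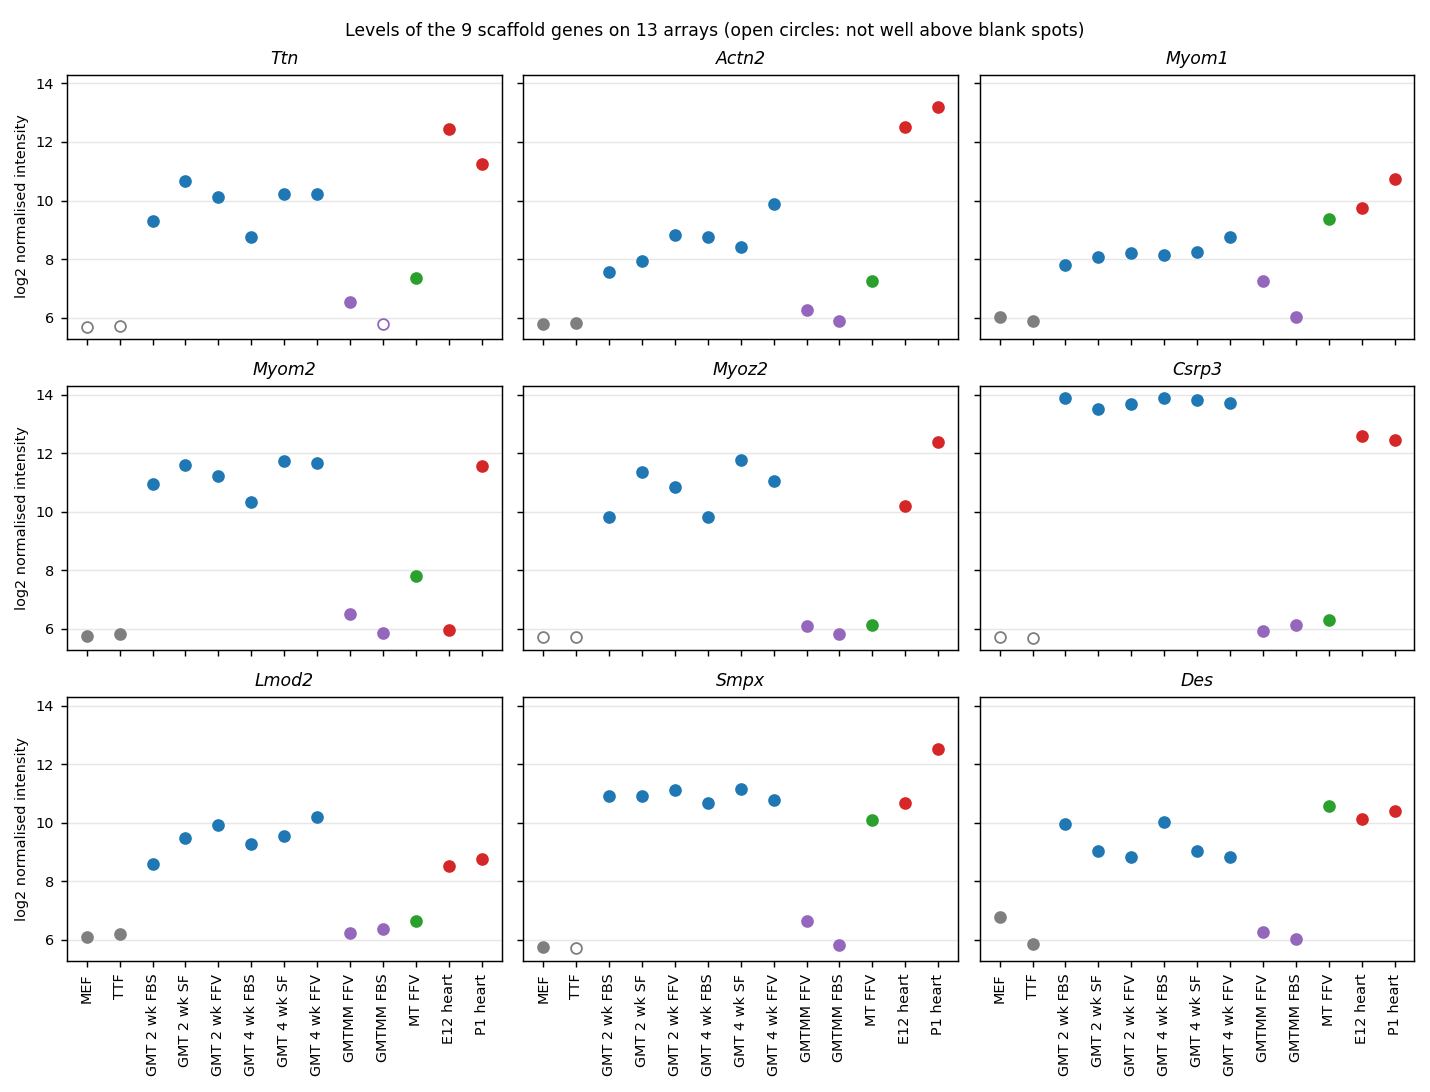
Log2 normalised intensity of each of the 9 genes (1 panel a gene) on the 13 arrays, 1 point an array, with open circles for spots not well above the blanks. Csrp3 is near 14 on all 6 GMT arrays, above both hearts, Actn2 and Myom1 are highest in the hearts, and Myom2 is near the blanks in the E12 heart.

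Ttn encodes titin, the giant spring of the sarcomere. In GMT iCMs at 2 weeks its level was 9.29 in FBS, 10.66 in SF and 10.10 in FFV, and at 4 weeks it was 8.77, 10.23 and 10.23. The E12 heart stood at 12.44 and the P1 heart at 11.25. The GMT arrays thus lay below both hearts and did not overlap them. MEFs (5.69), TTFs (5.71) and GMTMM iCMs in FBS (5.77) were not above background, while GMTMM iCMs in FFV read 6.52 and MT iCMs 7.35. Over the 6 GMT arrays Ttn was at least 17.6-fold higher than in MEFs, a bound because the MEF spot was at the blanks. Against the E12 heart Ttn was 5.88-fold lower on average (log2 difference −2.56 ± 0.71, SD over 6 arrays).

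The other Ttn probes gave a different order of the hearts. The second probe read 7.01 to 8.58 in GMT iCMs, 11.06 in the E12 heart and 11.41 in the P1 heart. The third, the dimmest, read 5.95 to 6.37 in GMT iCMs, 6.31 in E12 and 7.54 in P1. All 3 probes placed the P1 heart above every GMT array, but only the brightest placed E12 above P1. The annotation does not say which titin transcripts each probe reads.

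Actn2 encodes sarcomeric α-actinin, which crosslinks actin filaments at the Z-disc. GMT iCMs at 2 weeks read 7.55 in FBS, 7.92 in SF and 8.82 in FFV, and at 4 weeks 8.75, 8.42 and 9.89. The E12 heart read 12.49 and the P1 heart 13.20, so that every GMT array was far below both. MEFs (5.77), TTFs (5.82) and GMTMM iCMs (6.26 in FFV, 5.90 in FBS) were near the blanks, and MT iCMs read 7.26. Actn2 in GMT iCMs was 6.88-fold higher than in MEFs (log2 difference 2.78 ± 0.82, SD over 6 arrays), 15.3-fold lower than in the E12 heart and 25-fold lower than in the P1 heart. No other of the 9 genes was as far below the hearts in GMT iCMs. The area around the Actn2 spot was bright, at 87.0% to 102% of the spot's own signal on the GMT arrays and 95.1% on the E12 array, against 45.3% on the P1 array. With that surround subtracted, the difference from MEFs was 0.34 and from the E12 heart −1.99.

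Myoz2 encodes calsarcin-1 (myozenin 2), a Z-disc protein that binds α-actinin and calcineurin. Its GMT levels at 2 weeks were 9.82 in FBS, 11.35 in SF and 10.84 in FFV, and at 4 weeks 9.80, 11.76 and 11.04. At 10.18, the E12 heart fell inside the range of the GMT arrays, between the FBS arrays and the others, while the P1 heart at 12.37 was above them all. MEFs (5.71) and TTFs (5.73) were not above background, and GMTMM iCMs (6.11 in FFV, 5.83 in FBS) and MT iCMs (6.13) were barely so. In GMT iCMs Myoz2 was at least 32.6-fold higher than in MEFs.

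Csrp3 encodes the muscle LIM protein, a Z-disc protein implicated in sensing stretch. It was the steadiest of the 9 within the GMT iCMs, at 13.89 in FBS, 13.52 in SF and 13.66 in FFV at 2 weeks, and 13.89, 13.83 and 13.72 at 4 weeks. Both hearts were lower, E12 at 12.59 and P1 at 12.45, and no GMT array overlapped them. Neither fibroblast was above background (MEFs 5.73, TTFs 5.69), and GMTMM iCMs (5.93 in FFV, 6.12 in FBS) and MT iCMs (6.29) were only slightly above it. Csrp3 in GMT iCMs was at least 258-fold higher than in MEFs, 2.24-fold higher than in the E12 heart and 2.47-fold higher than in the P1 heart. The last of these rests on leaving the surround in: with it subtracted the log2 difference from P1 was −0.20.

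The M-band genes Myom1 and Myom2 encode myomesins, which crosslink myosin filaments and bind titin. Myom1 in GMT iCMs read 7.81 in FBS, 8.08 in SF and 8.19 in FFV at 2 weeks, and 8.12, 8.23 and 8.75 at 4 weeks. It was higher in the E12 heart (9.73), in the P1 heart (10.74) and in MT iCMs (9.38). The fibroblasts read 6.01 (MEFs) and 5.87 (TTFs), and GMTMM iCMs 7.26 in FFV but 6.03 in FBS. Myom1 in GMT iCMs was thus 4.55-fold above MEFs and 5.84-fold below the P1 heart, with MT iCMs and GMTMM iCMs in FFV also above the fibroblasts.

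Myom2 behaved differently from Myom1 in the hearts. Its GMT levels were 10.93 in FBS, 11.59 in SF and 11.23 in FFV at 2 weeks, and 10.34, 11.73 and 11.67 at 4 weeks. The E12 heart read 5.96, only 1.78 times the mean blank, and the P1 heart 11.56. MEFs read 5.76, TTFs 5.81, GMTMM iCMs 6.49 in FFV and 5.86 in FBS, and MT iCMs 7.81. The GMT arrays therefore overlapped the P1 heart and lay far above the E12 heart, where Myom2 was 39.0-fold lower than in GMT iCMs. Against P1 the mean log2 difference was −0.31 ± 0.54 (SD, 6 arrays), within the spread of the GMT arrays, and 0.24 with median scaling.

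Lmod2 encodes leiomodin 2, an actin nucleator at the pointed ends of cardiac thin filaments. GMT iCMs read 8.60 in FBS, 9.49 in SF and 9.91 in FFV at 2 weeks, and 9.29, 9.56 and 10.21 at 4 weeks. The E12 heart (8.53) was below all of them, and the P1 heart (8.77) was below all but the 2-week FBS array. MEFs (6.10), TTFs (6.20), GMTMM iCMs (6.24 in FFV, 6.36 in FBS) and MT iCMs (6.64) formed a low group. In GMT iCMs Lmod2 was 10.6-fold higher than in MEFs.

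Smpx encodes a small muscle protein found at costameres and linked to the response to stretch. In GMT iCMs it varied little, from 10.92 in FBS, 10.91 in SF and 11.11 in FFV at 2 weeks to 10.67, 11.16 and 10.77 at 4 weeks. The E12 heart (10.66) lay at the lower edge of this range, the P1 heart (12.53) above it, and MT iCMs (10.08) just below it. MEFs (5.75) and TTFs (5.72, not above background) were at the blanks, and GMTMM iCMs read 6.63 in FFV and 5.83 in FBS. Smpx in GMT iCMs was 36.1-fold higher than in MEFs and 3.04-fold lower than in the P1 heart.

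Des encodes desmin, the muscle intermediate filament protein. GMT iCMs in FBS (9.97 at 2 weeks, 10.02 at 4 weeks) were higher than those in SF (9.04 and 9.02) and FFV (8.84 and 8.83). MT iCMs had the highest level of all 13 arrays, 10.56, above the P1 heart (10.39) and the E12 heart (10.11). The fibroblasts differed from each other, MEFs at 6.77 (5.32 times the mean blank) and TTFs at 5.84 (1.11 times), and GMTMM iCMs read 6.26 in FFV and 6.03 in FBS. In GMT iCMs Des was 5.72-fold higher than in MEFs and on average 1.77-fold lower than in the E12 heart, although the log2 difference was 0.80 with the surround subtracted.

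The order of the arrays was firmer for some genes than for others. The residual SD of a gene in the fit of medium over 8 iCM arrays, given below, served as a yardstick. Of the 12 steps between neighbours in the order, those smaller than this SD were taken not to part their arrays. This SD also takes in any difference between GMT and GMTMM iCMs in their response to FFV. In the fit of all probes it was 0.35 for Des and 0.34 for Lmod2, and 0.11 and 0.17 with that difference as a term. For Actn2 3 of 12 steps were smaller, for Ttn 4, for Myom1 5, for Myoz2 5 and for Myom2 6. Csrp3 had 7 such steps, Smpx 8, and Lmod2 and Des 9 each. The highest array was the P1 heart for Actn2, Myom1, Myoz2 and Smpx and the E12 heart for Ttn. GMT iCMs were highest for Csrp3 (2 weeks, FBS), Myom2 (4 weeks, SF) and Lmod2 (4 weeks, FFV), and MT iCMs for Des. For these last 4 genes the step from the highest array to the next was within the residual SD. For Des and Lmod2 this rests on the larger of the SDs given above.

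GMT iCMs were compared with MEFs and with the hearts to place them between a fibroblast and the tissue. A gene was counted when it was at least 2-fold apart in every pair of arrays and above background in the higher one, a description with no test since every group is 1 array. All 9 genes exceeded MEFs in the GMT iCMs, as 1.96% of 15607 genes did (median log2 difference 4.19, all genes 0.01). Against the E12 heart 1 gene, Myom2, was higher (3.18% of all genes) and 2, Ttn and Actn2, were lower (3.68%). Against the P1 heart 1 gene, Csrp3, was higher (2.94%) and 3, Actn2, Myom1 and Smpx, were lower (4.08%). The median over the 9 genes was 0.26 against E12 and −1.37 against P1, where that of all genes was 0.01 for both. With the surround subtracted 7 of the 9 were counted higher than in MEFs.

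The scaffold genes were also set on a scale from MEFs (0%) to a heart (100%), in log2, for genes at least 4-fold higher in that heart than in MEFs. On the way to the E12 heart the lowest, median and highest of the 6 GMT arrays were 26.4%, 41.8% and 61.2% for Actn2. They were 48.3%, 57.7% and 73.7% for Myom1, and 45.6%, 66.4% and 73.6% for Ttn. Des reached 61.6% to 97.2%. These 4 genes stayed under the E12 heart in every GMT array. Smpx (100% to 110%), Csrp3 (114% to 119%) and Lmod2 (103% to 169%) reached or passed it in every array, and Myoz2 (91.4% to 135%) straddled it. The place of Des under the E12 heart does not hold on average with the surround subtracted, as given above. Such places were not counted over all genes. On the way to the P1 heart Csrp3 (116% to 122%) was past it in every array, while Actn2 (23.9% to 55.4%), Myom1 (38.0% to 57.9%), Smpx (72.6% to 79.8%), Ttn (55.4% to 89.4%), Des (56.9% to 89.8%) and Myoz2 (61.4% to 90.8%) fell short. Myom2 reached 79.0% to 103% and Lmod2 93.5% to 154%. The place of Csrp3 past the P1 heart rests on leaving the surround in, as given above. The MEF spots of Ttn, Myoz2 and Csrp3 were not above background, so that the 0% of these genes is set by the blanks. Those of Smpx, Myom2 and Actn2 were only 1.12, 1.15 and 1.19 times the mean blank, so their 0% is close to the blanks too.

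**Figure D2:**
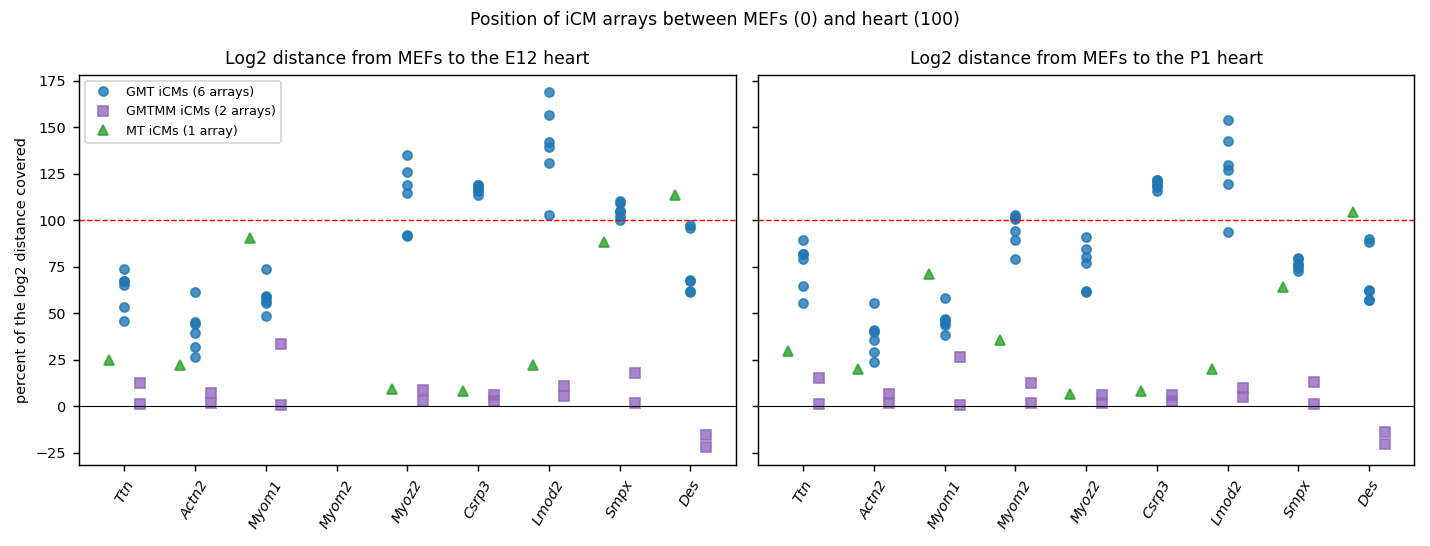
Percent of the log2 distance from MEFs (0, black line) to the E12 heart (left) or P1 heart (right; 100, dashed line) reached by each iCM array, 1 symbol an array. Actn2 is lowest among GMT iCMs and Lmod2 and Csrp3 are mostly above 100, while GMTMM symbols lie between −22.2 (Des, FBS) and 33.4 (Myom1, FFV), both on the E12 scale; Myom2 is left out for E12, where the heart itself is not 4-fold above MEFs.

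The hearts were compared with each other to see which scaffold genes differ with age. Against MEFs 8 of 9 genes were higher by 2-fold or more in E12 heart (5.67% of all genes) and 9 of 9 in P1 heart (6.09%), the exception at E12 being Myom2. Between the hearts 4 genes were higher at P1 (4.60% of all genes): Myom2 by 48.5-fold, Myoz2 by 4.56-fold, Smpx by 3.65-fold and Myom1 by 2.01-fold. Ttn alone was lower, by 2.28-fold (4.29% of all genes lower), on its brightest probe only. Actn2 (1.63-fold), Des (1.21-fold), Lmod2 (1.18-fold) and Csrp3 (1.10-fold) differed by less than 2-fold. The hearts lie in different array series.

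The effect of the medium was tested over the 8 GMT and GMTMM arrays, with medium and culture (GMT at 2 weeks, GMT at 4 weeks, GMTMM) as terms in limma. Of the 9 genes 0 passed at an adjusted p of 0.05 between FFV and FBS, where 0.0394% of 15246 genes passed, and 6 had an unadjusted p under 0.05 (10.7% of all genes). Ttn had the largest difference, 1.01 ± 0.17 in log2 (SE; limma, adjusted p = 0.196), and was higher in FFV in all 3 pairs, by 0.81 and 1.47 in GMT iCMs and 0.75 in GMTMM iCMs. Its other probes differed by less, 0.63 ± 0.18 and 0.11 ± 0.06 in the fit of all probes. Actn2 differed by 0.92 ± 0.23 (limma, adjusted p = 0.278), with pairs of 1.27, 1.14 and 0.37. Its spot's surround, not subtracted here, was 87.0% to 102% of the spot's own signal on the GMT arrays. Myoz2 differed by 0.84 ± 0.21, Myom2 by 0.75 ± 0.21 and Myom1 by 0.75 ± 0.18, each higher in FFV in 3 of 3 pairs. The largest opposite difference was that of Des, −0.70 ± 0.29 (limma, adjusted p = 0.467), which was lower in FFV in both GMT pairs (−1.13 and −1.19) and higher in the GMTMM pair (0.23). Lmod2 differed by 0.70 ± 0.28, Smpx by 0.36 ± 0.19 and Csrp3 by −0.20 ± 0.12. The median over the 9 genes was 0.75, beside a median close to 0 over all genes.

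Between SF and FBS, grown side by side only for GMT iCMs, 0 of 9 genes passed either (0.0459% of all genes), and 3 had an unadjusted p under 0.05 (13% of all genes). The GMTMM pair has no SF array but still enters this fit. A fitted SF difference can therefore lie outside its GMT pairs, as that of Ttn does. Myoz2 differed by 1.60 ± 0.24 (limma, adjusted p = 0.116) and was higher in SF by 1.53 at 2 weeks and 1.96 at 4 weeks. Ttn differed by 1.35 ± 0.20 (limma, adjusted p = 0.114), with pairs of 1.37 and 1.47, and its other probes by 1.19 ± 0.22 and 0.24 ± 0.08 in the fit of all probes. Myom2 differed by 0.99 ± 0.25 and Des by −0.73 ± 0.34. Actn2, Csrp3, Lmod2, Myom1 and Smpx differed by −0.22 to 0.38 and had unadjusted p-values over 0.05.

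The calls turned on the GMTMM arrays. Fitted on the 6 GMT arrays alone, with 2 residual degrees of freedom, 4 genes rose and 1 fell in FFV against FBS, where 1.77% of 15037 genes rose and 2.36% fell. Myoz2 rose by 1.13 (limma, adjusted p = 0.0180), Lmod2 by 1.12 (0.0257), Actn2 by 1.20 (0.0267) and Ttn by 1.14 (0.0291), and Des fell by 1.16 (0.00820), each the same way in both pairs. The Actn2 call carries the limit of a bright surround, given above, which was not subtracted. In SF against FBS 3 genes rose (5.03% of all genes) and 1 fell (5.97%). Myoz2 rose by 1.75 (limma, adjusted p = 0.00362), Ttn by 1.42 (0.00985) and Myom2 by 1.02 (0.0487), and Des fell by 0.97 (0.00773). Actn2 passed in FFV and not in SF, and Myom2 in SF and not in FFV. The media themselves, FFV against SF, were not shown to differ on these arrays for either gene or any other (0 of 15037 genes in limma, 1430 unadjusted). Macrophage markers moved with serum on the same arrays: their summed level was 1117 and 3025 in FBS and 760 to 797 in SF and FFV. Summed fibroblast markers at 2 and 4 weeks were 7336 and 12930 in FBS, 6222 and 4632 in SF and 8499 and 14884 in FFV. Summed cardiomyocyte markers were 79939 and 85856 in FBS and 98141 to 119463 in SF and FFV. Their part in the differences was not tested.

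**Figure D3:**
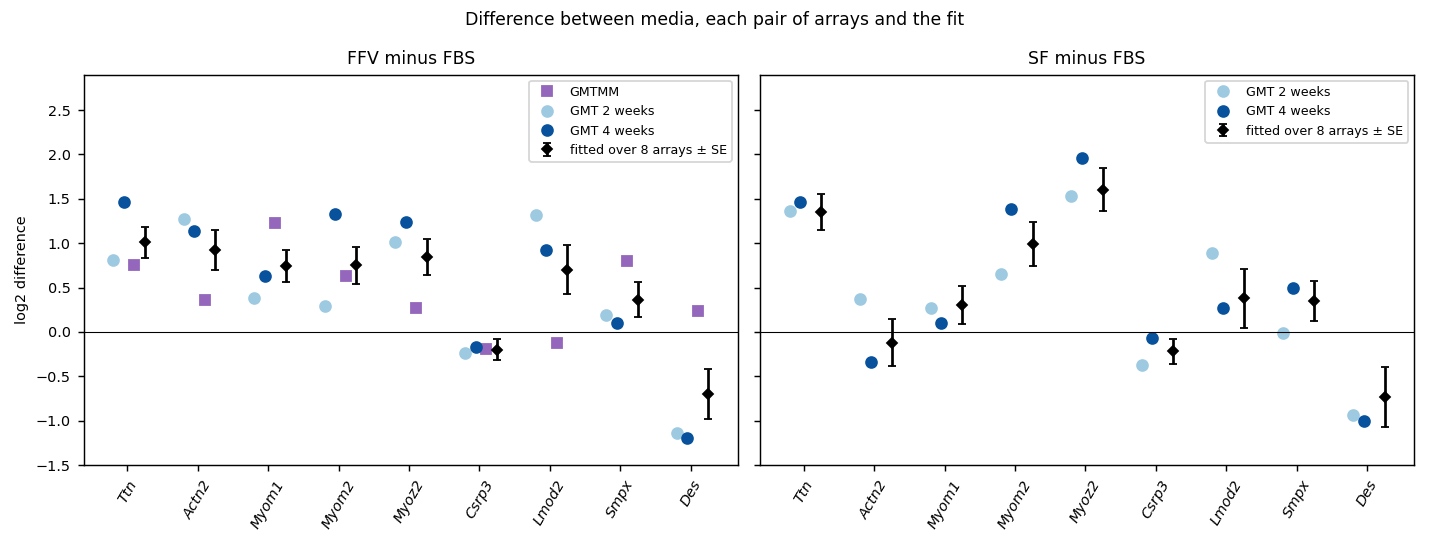
Log2 difference between media for each gene, FFV minus FBS (left) and SF minus FBS (right); coloured symbols are single pairs of arrays and black diamonds the fit over 8 arrays ± SE. Ttn and Myoz2 lie above 0 in every pair of both panels, and Des lies below 0 in every GMT pair but not in the GMTMM pair.

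FFV and SF were compared to ask what the 3 growth factors change without serum. In limma on the 8 arrays 0 of 15246 genes passed (0%), and 2 of the 9 had an unadjusted p under 0.05, as did 768 genes in all (5.04%). These were Actn2, higher in FFV by 1.05 ± 0.26 with pairs of 0.90 and 1.47, and Myoz2, lower by 0.76 ± 0.24 with pairs of −0.52 and −0.72 (limma, adjusted p = 0.872 for both). The other 7 differed by −0.34 to 0.44. The GMTMM pair enters this fit too, and the fitted Myoz2 difference lies outside both of its GMT pairs. For Des the fit gave 0.04, although both GMT pairs were negative (−0.20 and −0.19). Actn2 and Myoz2, partners at the Z-disc, thus had their highest GMT level in different media, Actn2 in FFV and Myoz2 in SF at both times. For Actn2 this holds with the bright surround of its spot left in. In the same comparison 8 of 10 fibroblast markers had an unadjusted p under 0.05 (median 1.12, higher in FFV), and their part in these differences was not tested.

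Time in culture was tested on the 6 GMT arrays, 4 weeks against 2 weeks, with medium as a term. In limma 0 of 15037 genes passed (0%; 1322 unadjusted), and 3 of the 9 had an unadjusted p under 0.05 (8.79% of all genes). Actn2 was higher at 4 weeks in all 3 media, by 1.20 in FBS, 0.50 in SF and 1.07 in FFV (0.92 ± 0.15; limma, adjusted p = 0.550). Lmod2 (0.35 ± 0.14) and Myom1 (0.34 ± 0.11) were also higher in 3 of 3 media. The surround of the Actn2 spot, not subtracted here, was 87.0% to 102% of the spot's own signal on these 6 arrays. Ttn (−0.27 ± 0.15), Myoz2 (0.20 ± 0.12), Csrp3 (0.12 ± 0.11) and Smpx (−0.11 ± 0.14) had unadjusted p-values over 0.05. Des and Myom2 both had a mean difference of 0.00, but with unlike spread: Des kept within 0.05 of its 2-week level in each medium, while Myom2 was 0.59 lower in FBS and 0.44 higher in FFV.

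GMTMM iCMs were compared with TTFs, their cells of origin, on arrays of the same series. In both arrays 0 of 9 genes were at least 2-fold higher (1.02% of 15237 genes). In FFV 1 gene was, Myom1 by 2.61-fold (2.67% of genes), followed by Smpx at least 1.84-fold and Ttn at least 1.71-fold higher. In FBS 0 genes were (2.37%), and the highest of them was Csrp3, at least 1.30-fold. The median over the 9 was 0.44 in FFV and 0.11 in FBS. On the way from MEFs to the E12 heart the genes other than Myom2 reached a median of 8.08% in FFV and 1.75% in FBS, where the medians of the GMT arrays were 87.3% to 94.3%. Des stood below the MEF level in both GMTMM arrays, at −15.3% and −22.2% of the distance, but MEFs were not their source. Of the cardiomyocyte markers 8 of 9 were above background in GMTMM iCMs in FFV (all but Ryr2), 7 of 9 in FBS (all but Myh6 and Ryr2) and 6 of 9 in TTFs (all but Myh6, Tnnt2 and Ryr2). Of all probes 87.6%, 78.4% and 88.6% were above background on these arrays, in the same order. In MEFs 8 of 9 of the markers were above it too, so that this count does not part GMTMM iCMs from fibroblasts.

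Whether FFV acted alike in GMT and GMTMM iCMs was tested directly as an interaction. In limma 2 of 9 genes passed, where 9.59% of all genes did, and 5 had an unadjusted p under 0.05 (27.6% of all genes). For Des the FFV difference was 1.39 ± 0.19 higher in GMTMM iCMs (limma, adjusted p = 0.00982), being 0.23 there and −1.16 on average in GMT iCMs. For Lmod2 it was −1.24 ± 0.29 (limma, adjusted p = 0.0479), being −0.12 in GMTMM and 1.12 in GMT iCMs. Myom1 went the other way, 1.22 in GMTMM against 0.51 in GMT iCMs, without passing (0.72 ± 0.23; limma, adjusted p = 0.104). The Lmod2 spots of the GMTMM arrays were 1.52 and 1.60 times the blanks, close to the TTF spot at 1.5, and the Des spots were 1.55 times them in FFV and 1.24 in FBS; a dim spot limits how large a difference can be. The test has 2 residual degrees of freedom, all from GMT arrays, so that the lone GMTMM pair is assumed to vary like them. With the surround subtracted neither gene passed. For the marker lists the median of this difference was 1.26 for cell cycle, 0.68 for smooth muscle and 0.18 for cardiomyocyte markers. It was 0.05 for fibroblast, 0.03 for endothelial, −0.03 for skeletal muscle and −1.75 for macrophage markers, beside −0.01 for all genes. Macrophage markers summed to 803 in GMTMM iCMs in FFV and 7117 in FBS, and cell cycle markers to 3832 and 2120. Their part in the result was not tested.

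MT iCMs lacked Gata4 among the transduced factors and were compared with GMT iCMs in the same medium. Of the 9 genes 6 were at least 2-fold lower than in both GMT FFV arrays (1.91% of 15389 genes) and 1 was higher (2.75%). Csrp3 was 170-fold lower, Myoz2 28.0-fold, Myom2 12.4-fold, Lmod2 10.7-fold, Ttn 7.06-fold and Actn2 4.28-fold. Des was 3.31-fold higher than in GMT iCMs, by 1.72 and 1.73 in log2 against the 2 arrays. Myom1 (1.87-fold higher) and Smpx (1.82-fold lower) differed by less than 2-fold on average.

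Against MEFs 6 of 9 genes were at least 2-fold higher in MT iCMs (4.78% of 15291 genes). Smpx was 20.1-fold higher, Des 13.8-fold, Myom1 10.3-fold, Myom2 4.15-fold, Ttn at least 3.05-fold and Actn2 2.80-fold. Lmod2 (1.45-fold), Csrp3 (at least 1.46-fold) and Myoz2 (at least 1.31-fold) were close to the MEF level. Compared with GMTMM iCMs in FFV, 4 genes were higher (2.54% of 14961 genes): Des by 19.7-fold, Smpx by 10.9-fold, Myom1 by 4.35-fold and Myom2 by 2.51-fold. MT iCMs thus had levels of Des, Smpx and Myom1 near those of the E12 heart, 113%, 88.2% and 90.4% of the way from MEFs to the E12 heart, beside 8.14% for Csrp3 and 9.40% for Myoz2. Of the smooth muscle markers 3 of 6 were at least 2-fold higher than in both GMT FFV arrays (2.75% of all genes; median log2 difference 1.02), and they summed to 51016, against 7814 to 13481 on the GMT arrays and 24812 in MEFs. Acta2, named after its value was seen, made up 42849 of the sum in MT iCMs and 20118 of that in MEFs. The others summed to 8167 in MT iCMs, 1974 to 3083 on the GMT arrays and 4694 in MEFs. Of the skeletal muscle markers 1 of 14 was higher (median 0.13): they summed to 5029, of which Myh1, named after its value was seen, made up 3446, and the others to 1583, against 1469 to 1621 on the GMT arrays. Of the fibroblast markers 6 of 10 were higher (median 1.77), and of the cardiomyocyte markers none was (median −2.59). The part of these cell types in the levels was not tested, and the array lies in another series than the GMT arrays.

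**Figure D4:**
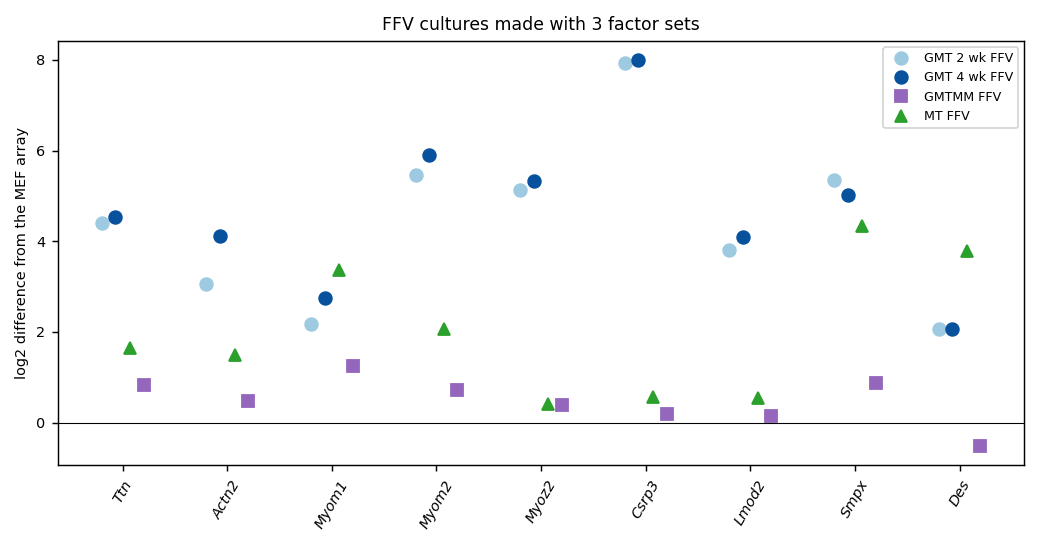
Log2 difference from the MEF array for the 4 arrays grown in FFV, by gene; circles are GMT iCMs at 2 and 4 weeks, squares GMTMM iCMs and triangles MT iCMs. The MT triangle lies above the GMT circles for Des and Myom1, close to them for Smpx and far below them for Csrp3, Myoz2 and Myom2.

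Across the 13 arrays the 9 genes did not rise and fall as 1 block. As a description, with points that share the contrast of heart and iCMs with fibroblasts, the Pearson correlation of log2 levels was 0.97 between Csrp3 and Lmod2 and 0.94 between Myoz2 and each of them. It was 0.91 between Smpx and Des, 0.88 between Actn2 and Myom1, and 0.87 between Myom1 and Des. The lowest value was 0.44, between Actn2 and Myom2, and the myomesins correlated at 0.52. Among 2068 genes with a range of at least 2 in log2, the gene most like Csrp3 was Dsp, the desmosomal plaque protein desmoplakin (0.99), and the gene most like Lmod2 was Cap2, an actin-regulating cyclase-associated protein (0.99). For Actn2 it was Tmod1, the thin filament capping protein tropomodulin 1 (0.98), and for Myoz2 it was Tnnc1, cardiac troponin C (0.98). Ttn was most like Nppa, the atrial natriuretic peptide (0.96), and Smpx most like Myl7, the atrial myosin light chain (0.97). Myom2 was most like Acaa2, a mitochondrial thiolase (0.97), Myom1 most like Ldhb, a lactate dehydrogenase subunit (0.96), and Des most like Itga9, an integrin (0.95).

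Partner genes of the same structures are given from lists grouped by function. Of 32 measured genes of the Z-disc and its linked proteins, 4 were at least 2-fold higher in all 6 GMT arrays than in MEFs and 2, Actn1 and Palld, were lower (named after their values were seen), beside 1.96% and 2.92% of all genes. The stretch-responsive ankyrin repeat protein Ankrd1 was 110-fold higher, the α-actinin-binding Pdlim3 54.0-fold, the actin-binding nexilin Nexn 5.03-fold and the small heat shock protein Cryab 4.81-fold. Their median log2 difference was 0.26, beside 4.19 for the 9 scaffold genes and 0.01 for all genes. Of 8 measured partners of the M-band and titin 2 were higher and 0 lower, the myosin-binding protein Mybpc3 (mean log2 difference 4.18, its MEF spot not above background) and the autophagy receptor Sqstm1 (2.25-fold). Next in size were Obsl1 (2.20-fold) and Trim54 (1.88-fold).

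Among 5 measured thin filament genes 0 were at least 2-fold apart in every array, beside the same 1.96% higher and 2.92% lower of all genes. Tmod1 differed most, by 2.32-fold on average, followed by Tmod3 (1.33-fold higher), Tmod2 (1.18-fold lower) and Tmod4 (1.17-fold higher). Of 16 genes of the intermediate filament and costamere 1 was higher, Dsp at 61.4-fold, and Dtna (3.29-fold), Sync (2.52-fold) and Nes (2.40-fold) were higher on average. Of 9 measured upstream regulators 2 were higher, the transduced Gata4 (118-fold) and Tbx5 (67.1-fold), followed on average by Srf (1.90-fold) and with Gata6 lower (1.29-fold). In MT iCMs, whose factors include Tbx5 and not Gata4, Tbx5 read 12.38 and Gata4 5.99. Whether these probes also read vector transcripts was not tested. Mef2c was not measured here.

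Between media and between times 0 of 69 partner genes tested passed in limma. With an unadjusted p there were 19 for FFV against FBS (10.7% of all genes), 20 for SF against FBS (13%), 8 for FFV against SF (5.04%) and 13 for time (8.79%). In the interaction 8 of 69 passed, 4 in each direction, where 9.59% of all genes passed. With its sign, the FFV minus FBS difference was higher in GMTMM than in GMT iCMs for Tbx5 (2.31 ± 0.28), Myocd (1.24 ± 0.06), Lmod1 (0.47 ± 0.09) and Trim63 (0.24 ± 0.06). It was lower for Gata4 (−1.68 ± 0.27), the intermediate filament gene Nes (−1.63 ± 0.20), Tln1 (−1.06 ± 0.21) and Tmod4 (−0.46 ± 0.09). Some of these levels were near the blanks. Trim63 read 5.79 in FFV and 5.78 in FBS in GMTMM iCMs, against 5.91 to 6.43 on the GMT arrays, and Myocd read 5.80 to 5.83 on the GMT arrays. Gata4, Tbx5 and Myocd are among the factors transduced into GMTMM iCMs, and their own levels in these iCMs differed between the media: Gata4 read 7.89 in FFV and 9.06 in FBS, Tbx5 9.83 and 7.01, and Myocd 7.38 and 6.16. Their part in the medium differences of the scaffold genes was not tested.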

How the data were processed

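Single-colour arrays were read with Cy5 at 635 nm. The scanner intensities deposited by the authors carry no background correction, per the file headers. The spot median intensity was corrected by normexp (offset 50, no surround subtracted), put on the log2 scale and quantile normalised. Spots marked bad were set missing. This offset shrinks the differences of dim genes. Of 23473 probes 16631 carried 1 gene symbol in GEO's platform annotation and 6842 none, and 3947 symbols were updated. Each of 16390 genes was represented by its brightest probe. The authors' deposited value table, a linear intensity whose scaling is not stated (each column a straight line of the spot median with a median of 25), was an alternative.

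Medium, time and their interaction with the factor set were tested in limma 3.58.1 (R 4.3.3; two-sided, mean-variance trend, Benjamini-Hochberg adjustment over all genes that were above background on 2 or more of the fitted arrays, threshold 0.05). The test was tested on simulated data. No replicate numbers are given, so p-values measure the scatter of an effect between cultures. Other comparisons have no test.

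The named genes are all 9 scaffold genes, the partner genes that passed plus up to 4 per list with the largest difference between GMT iCMs and MEFs, and the genes of highest correlation with each scaffold gene. Genes and lists were chosen with earlier results of these data known. Alternatives were the surround subtracted, the deposited table, an offset of 16, median scaling, blank-subtracted signal with a floor, the mean of all probes, no filter, no trend and leaving out arrays.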

Additional observations from a re-analysis of the deposited data

Results flagged for a closer look

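For 2 of the 9 genes the response to FFV differed between GMTMM and GMT iCMs when the difference itself was tested, as it did for 9.59% of all genes. The GMTMM spots of these 2 genes were dim, at 1.24 to 1.60 times the mean blank. For Des the FFV minus FBS difference was 1.39 (log2) higher in GMTMM iCMs, with levels of 6.26 in FFV and 6.03 in FBS there, against 8.84 and 9.97 in GMT iCMs at 2 weeks and 8.83 and 10.02 at 4 weeks. For Lmod2 it was lower, −1.24, with levels of 6.24 and 6.36 in GMTMM iCMs, against 9.91 and 8.60 at 2 weeks and 10.21 and 9.29 at 4 weeks in GMT iCMs. The Des call was lost with the surround subtracted, and the Lmod2 call with the surround subtracted, with a floor, on the deposited table and without a trend.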

How the results depend on the processing

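With the GMTMM arrays left out, the genes called between FFV and FBS went from 0 to 5 and those between SF and FBS from 0 to 4, so that leaving out any culture gave 0 to 5 and 0 to 4. Over all genes these calls went from 6 to 621 and from 7 to 1653. The genes called in the interaction went from 2 to 0 with the surround subtracted, 4 with an offset of 16, 3 on the deposited table and 1 without a trend. Over all genes the interaction calls went from 828 higher and 634 lower to 59 and 76 with the surround subtracted. They were 759 and 593 with an offset of 16, 921 and 525 on the deposited table, and 192 and 177 without a trend. For Lmod2 the adjusted p was 0.149 with a floor, 0.223 with the surround subtracted, 0.0532 on the deposited table and 0.120 without a trend, and for Des it was 0.375 with the surround subtracted. Genes at least 2-fold higher than the E12 heart went from 1 to 2 with median scaling, a floor or the deposited table. Those higher than the P1 heart went from 1 to 0 with the surround subtracted, where Csrp3 reversed to −0.20. These counts of pairs under alternatives were added after the data were seen. Of 468 refitted differences of the 9 genes 449 kept their sign where called and their side of the threshold, 14 passed newly and 5 no longer did, while 34 uncalled ones changed sign. Of 162 refitted mean differences from MEFs and hearts 62 moved by over 1 SD between the GMT arrays and 1 called one reversed. Apart from the effect of leaving arrays out, the cause was not tested. The media were compared within each culture through the culture term. Since the labels carry no replicate numbers, no pairing beyond this was possible. Dim spots, such as those of GMTMM iCMs, limit how small a difference can be seen.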
